A study of Mus musculus with 9 samples.

Results

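The genes described here are 10 enzymes that build chondroitin sulfate (CS) and dermatan sulfate (DS), taken by name as Chsy1, Chpf, Chpf2, Csgalnact1, Csgalnact2, Chst11, Chst12, Chst14, Chst15 and Dse. All 10 were found among the 35275 gene identifiers of the count table. They were measured by bulk RNA-seq in wild-type mouse bone marrow megakaryocyte-erythroid progenitors (MEPs), gated by FACS as lineage-negative, ckit+, CD34- and FcγRII/III-low. HS3A8 is a single-chain antibody fragment (scFv) that binds a sulfated heparan sulfate (HS) pattern, and its binding divided the MEPs into HS3A8-high and HS3A8-low cells. MPB49, an scFv with no known HS binding, was used to mock-sort total MEPs as the control. Each of the 3 groups had 3 libraries of 25000 cells, so a library is an average over a gate that can hold several cell states. No group carried a genetic change or a drug. The sorted fractions came from individual mice, and the labels do not tie a library to a mouse.

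CS and DS are sulfated sugar chains on proteoglycan core proteins. They start on the same linkage sugars, attached to a serine of the core protein, as HS chains do. An N-acetylgalactosamine added as the next sugar commits the chain to CS, an N-acetylglucosamine commits it to HS, and an epimerase turns parts of CS into DS. Blood cells are known for CS on serglycin, the proteoglycan of secretory granules.

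Library totals ran from 11781637 to 15850037 counts, and 3 counts, the limit that a count of 0 allows, correspond to 0.176 to 0.282 CPM (counts of a gene relative to the scaled library total). All CPM are scaled by TMM over the 9 libraries, and these limits cover counting error only. MEP markers were present, with Kit at 383.0 to 796.7 CPM. Transcripts of genes that the gate selects against were seen as well. Cd34 had 0.828 to 10.99 CPM in HS3A8-high MEPs, 28.1 to 73.8 in HS3A8-low MEPs and 15.3 to 42.3 in the control. Replicate 3 of both sorted fractions carried granulocyte and monocyte transcripts, with Fcgr3 at 17.8 CPM in that library of HS3A8-high MEPs and 43.9 in that of HS3A8-low MEPs against at most 2.25 elsewhere. Control replicate 1 stood apart in its TMM factor (0.865) and its mitochondrial share (0.547%, against 0.147% to 0.327% in the other libraries).

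The enzymes spanned a wide range of levels, compared here as CPM per kilobase of annotated exon over all 9 libraries. Chst12, a sulfotransferase, was highest at 16.5 ± 3.70 (SD, n = 9), and Csgalnact2, which starts and extends the chain, had 13.2 ± 2.33. Chst12 exceeded Csgalnact2 in 8 of the 9 libraries. Chpf2 followed with 6.53 ± 1.22 and Chst15 with 5.31 ± 1.17, each above the next gene in all 9 libraries. Chst14 (3.17 ± 0.703) and Chpf (2.99 ± 0.813) did not separate, with Chst14 higher in 5 of 9 libraries. Chst11 (1.27 ± 0.657) and Csgalnact1 (1.14 ± 0.566) did not separate either, with Chst11 higher in 4 of 9. Chsy1 had 0.664 ± 0.174, below Csgalnact1 in 8 of 9 libraries. Dse was the lowest at 0.122 ± 0.159 and passed 3 counts in only 4 libraries. The order depends on exon length, and 44.1% of the exon bases of Chpf2 overlap those of Smarcd3 and Mir671, 17.9% of those of Chst15 overlap Gm10584 and 3.54% of those of Chsy1 overlap Gm26827. Whether the counting used strand is not given in the sources used here, so reads in these stretches cannot be assigned with certainty.

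**Figure D1:**
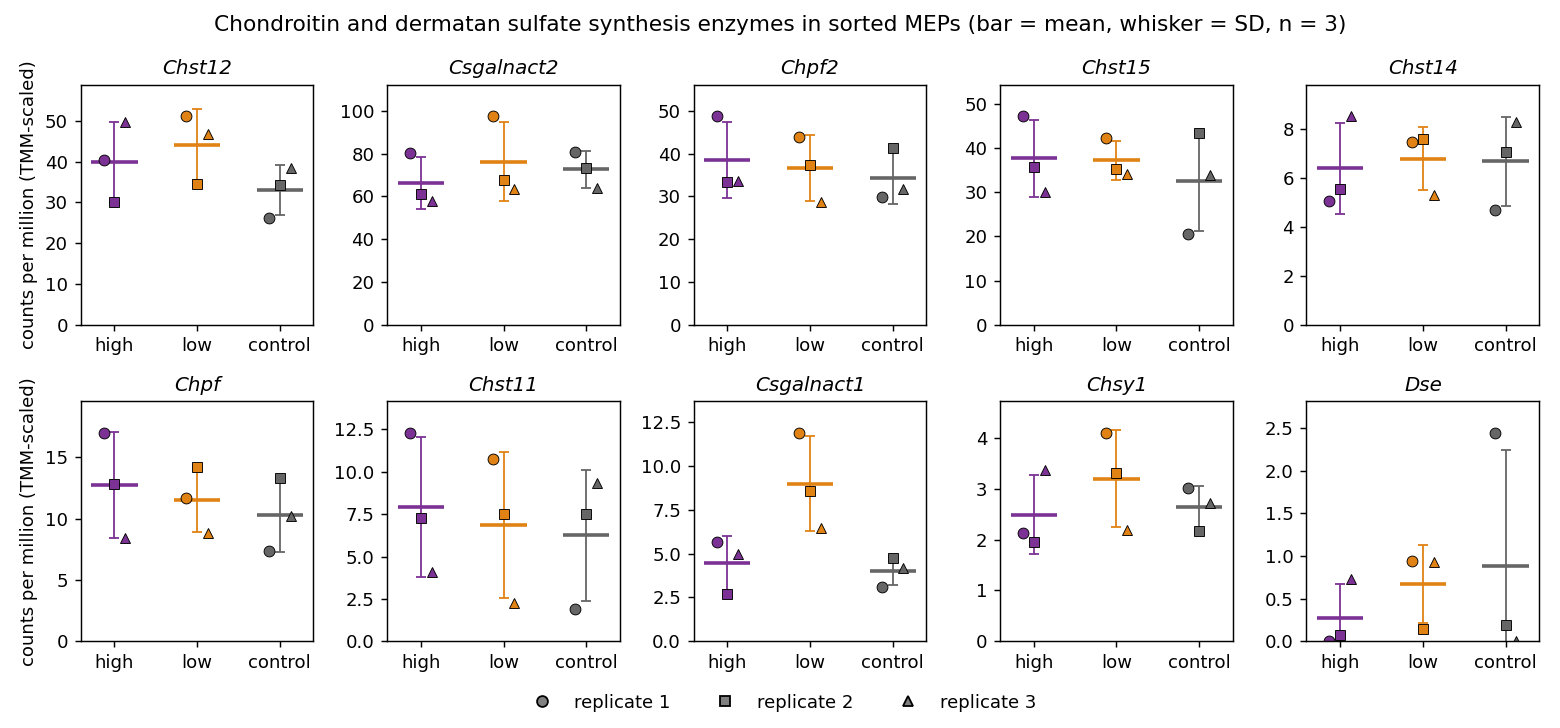
Level of each of the 10 enzymes in TMM-scaled CPM (vertical axes, each starting at 0 with its own scale) in the HS3A8-high, HS3A8-low and MPB49 control libraries. Points are libraries, bars are means, whiskers are the SD over 3 libraries, and the lower whisker of Dse is clipped at 0. Csgalnact1 is the one enzyme whose HS3A8-low libraries all lie above those of both other groups. Of all genes tested, 14.5% were lower in HS3A8-high than in HS3A8-low without overlap. Against the control, 7.88% were higher in HS3A8-low without overlap.

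Chain initiation is carried out by Csgalnact1 and Csgalnact2, the CS N-acetylgalactosaminyltransferases that place the first galactosamine on the linkage sugars. Csgalnact1 (ENSMUSG00000036356, GRCm38 chromosome 8 from 68356781 to 68735146) had 5.65, 2.71 and 4.96 CPM in HS3A8-high replicates 1, 2 and 3. It had 11.9, 8.58 and 6.48 CPM in the HS3A8-low libraries, and 3.11, 4.72 and 4.18 in the control. All HS3A8-low values lay above all values of HS3A8-high and of the control, while HS3A8-high and the control overlapped. Of all genes tested, 14.5% were lower in HS3A8-high than in HS3A8-low without overlap. Against the control, 7.88% were higher in HS3A8-low without overlap. The means of Csgalnact1 were 4.44 ± 1.54 CPM (SD, n = 3), 8.98 ± 2.72 and 4.004 ± 0.822 in HS3A8-high MEPs, HS3A8-low and the control. The control mean lay below the means of both fractions. The control was mock-sorted total MEPs, while the fractions were the upper and lower parts of MEPs by HS3A8 binding. The cause of the lower control mean was not tested.

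The log2 fold change of Csgalnact1, HS3A8-high over HS3A8-low, was -1.04 (standard error 0.372, 95% interval -1.92 to -0.16). It did not pass the threshold of 0.05 in edgeR's quasi-likelihood test with Benjamini-Hochberg adjustment over all genes (adjusted p = 0.181, and 0.0505 to 0.668 over the 18 alternatives). With 1 library or 1 replicate number left out the fold change ran from -1.30 to -0.77. In HS3A8-low against the control its log2 fold change was 1.16 (standard error 0.347, 95% interval 0.35 to 1.98), again short of the threshold (adjusted p = 0.711 by the same test, 0.0612 to 1.0 over the alternatives). HS3A8-high and the control differed by 0.16 (95% interval -0.77 to 1.08). In bulk libraries, fewer cells of a type and less RNA per cell cannot be told apart.

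Markers of other cell types were compared between the same groups. The 9 tested of 12 stem and multipotent progenitor genes were all lower in HS3A8-high, 3 of them past the threshold (3.82% of all genes), and their summed level was 17.3 to 33.8 CPM in HS3A8-high MEPs, 185 to 216 in HS3A8-low MEPs and 86.4 to 143 in the control. Of 12 tested megakaryocyte genes, 11 were lower in HS3A8-high and 4 passed the threshold, with sums of 84.9 to 124, 257 to 464 and 197 to 342 CPM. All 11 T and NK cell genes were lower in HS3A8-high, 3 past the threshold, with sums of 4.82 to 43.9, 212 to 267 and 59.4 to 135 CPM. In the stem and progenitor, megakaryocyte, T and NK cell, and B cell lists every control sum lay above every HS3A8-high sum. The B cell sums were 5.64 to 27.8, 47.3 to 50.4 and 30.9 to 40.3 CPM, with Ms4a1 and Pax5 at 0 in all 9 libraries. Basophil and mast cell genes summed to 1.63 to 81.0, 22.8 to 167 and 10.2 to 26.3 CPM, with Mcpt4 and Tpsab1 at 0 throughout, and dendritic cell genes to 66.3 to 97.8, 92.7 to 149 and 93.7 to 143. The 14 erythroid genes summed to 14241 to 15117 CPM in HS3A8-high MEPs, 10881 to 12236 in HS3A8-low MEPs and 13385 to 14170 in the control. Of these genes 7 were higher and 7 lower in HS3A8-high than in HS3A8-low, with a median log2 fold change of 0.05. Of the granulocyte and monocyte genes, all 12 tested were lower in HS3A8-high and 0 passed, with sums of 12.9 to 2040, 167 to 5240 and 121 to 225 CPM. In both fractions replicate 3 held the highest of these sums (2040 and 5240 CPM), against 167 and 306 in HS3A8-low replicates 1 and 2. The basophil and mast cell sums were also highest in replicate 3 of both fractions. HS3A8-low replicate 3 had the lowest Csgalnact1 of its group (6.48 CPM). With the replicate number as a block, 11.6% of all genes passed, with 6 stem and progenitor, 8 megakaryocyte, 5 T and NK cell, 7 granulocyte and monocyte genes and 1 gene each of the B cell, basophil and mast cell, and dendritic cell lists, all lower in HS3A8-high. Of the erythroid genes 1 passed in the main test and 4 with the block, all higher in HS3A8-high, and of the 8 MEP gate genes 0 and 5. The part of these cells in the level of Csgalnact1 was not tested.

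Csgalnact2 (ENSMUSG00000042042, chromosome 6 from 118107452 to 118139140) was far more abundant than its paralog. It had 80.2, 61.0 and 57.7 CPM in HS3A8-high MEPs, 97.5, 67.6 and 63.6 in HS3A8-low MEPs, and 80.9, 73.1 and 63.9 in the control. The 3 groups overlapped. Replicate 1 was the highest library of every group, and HS3A8-high was below HS3A8-low within each of the 3 replicate numbers. Its log2 fold change was -0.23 between HS3A8-high and HS3A8-low (95% interval -0.73 to 0.27, edgeR adjusted p = 0.608). Against the control it was -0.12 (-0.53 to 0.29) in HS3A8-high and 0.07 (-0.42 to 0.56) in HS3A8-low.

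Between the paralogs, Csgalnact1 made up the smaller part, computed as its share of the summed levels per kilobase. The share was 6.999%, 4.53% and 8.41% in HS3A8-high MEPs, 11.5%, 11.9% and 9.81% in HS3A8-low MEPs, and 3.94%, 6.45% and 6.53% in the control. HS3A8-low lay above both other groups without overlap, and the control mean was below that of both fractions. The mean shares of 6.65% ± 1.96 (SD, n = 3) in HS3A8-high and 11.1% ± 1.13 in HS3A8-low differed by -4.44 percentage points, and HS3A8-low exceeded the control (5.64% ± 1.47) by 5.45 points. In the exact two-sided permutation test over libraries each of these 2 differences had p = 0.1, the smallest value that 3 against 3 allows, and an adjusted p of 0.225 over the 9 ratio tests made.

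Chain elongation is shared by the chondroitin synthases and polymerizing factors Chsy1, Chpf and Chpf2, which act in pairs to add glucuronic acid and N-acetylgalactosamine in turn. Chsy1 (ENSMUSG00000032640, chromosome 7 from 66109515 to 66173798) had 2.13, 1.96 and 3.38 CPM in HS3A8-high MEPs, 4.10, 3.31 and 2.19 in HS3A8-low MEPs, and 3.01, 2.17 and 2.72 in the control. HS3A8-low replicate 1 was the highest library and HS3A8-high replicate 3 came next, so the groups overlapped. Its log2 fold change between the sorted fractions was -0.39 (95% interval -1.31 to 0.53, edgeR adjusted p = 0.639), on 26 to 70 counts per library.

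Chpf (ENSMUSG00000032997, chromosome 1 from 75474569 to 75479307) had 7.34 to 17.0 CPM and Chpf2 (ENSMUSG00000038181, chromosome 5 from 24586741 to 24594556) 28.7 to 48.7 CPM over the 9 libraries. The highest library of both genes was HS3A8-high replicate 1. Mean Chpf was 12.8 ± 4.31 CPM (SD, n = 3) in HS3A8-high, 11.6 ± 2.69 in HS3A8-low MEPs and 10.3 ± 2.996 in the control. Mean Chpf2 was 38.5 ± 8.84, 36.6 ± 7.65 and 34.3 ± 6.10 CPM. These differences were smaller than the spread between replicates. The log2 fold changes between HS3A8-high and HS3A8-low were 0.12 (95% interval -0.63 to 0.87) for Chpf and 0.05 (-0.48 to 0.57) for Chpf2.

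Sulfation of the galactosamine at the C4 position is the role of Chst11 and Chst12 on CS and of Chst14 on DS, and Chst15 adds a further sulfate to a galactosamine that already carries one. Chst12 (ENSMUSG00000036599, chromosome 5 from 140505550 to 140525724) had 40.3, 30.1 and 49.7 CPM in HS3A8-high MEPs, 51.2, 34.5 and 46.9 in HS3A8-low MEPs, and 26.3, 34.3 and 38.4 in the control. The highest library was HS3A8-low replicate 1 and the lowest control replicate 1, and the groups overlapped. The log2 fold change of HS3A8-low over the control was 0.42 (95% interval -0.11 to 0.95, edgeR adjusted p = 0.840), and that of HS3A8-high over HS3A8-low was -0.17 (-0.70 to 0.36).

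Chst11 (ENSMUSG00000034612, chromosome 10 from 82985498 to 83195900) varied more between replicates than between groups. It had 12.3, 7.30 and 4.10 CPM in HS3A8-high MEPs, 10.8, 7.53 and 2.27 in HS3A8-low MEPs, and 1.88, 7.53 and 9.32 in the control. In both sorted fractions replicate 1 was highest and replicate 3 lowest, and in the control replicate 1 was lowest. The log2 fold change between the sorted fractions was 0.17 with a 95% interval of -1.28 to 1.63, so differences of more than 2-fold in either direction lie inside it. Of the summed Chst11 and Chst12 levels per kilobase, Chst11 made up 8.11% ± 4.21 (SD, n = 3) in HS3A8-high, 6.27% ± 3.68 in HS3A8-low MEPs and 6.98% ± 3.50 in the control. The shares overlapped in all 3 comparisons, and the exact two-sided permutation test gave p from 0.5 to 0.6.

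Chst14 (ENSMUSG00000074916, chromosome 2 from 118926496 to 118928585) averaged 6.40 ± 1.87 CPM (SD, n = 3) in HS3A8-high, 6.80 ± 1.30 in HS3A8-low MEPs and 6.69 ± 1.82 in the control. Chst15 (ENSMUSG00000030930, chromosome 7 from 132235780 to 132317228) had 37.7 ± 8.74, 37.2 ± 4.41 and 32.6 ± 11.4 CPM. Both genes had nearly the same mean in the sorted fractions. Their log2 fold changes, HS3A8-high over HS3A8-low, were -0.12 (95% interval -0.82 to 0.59) and -0.01 (-0.47 to 0.46). The lowest Chst15 value, 20.6 CPM, was that of control replicate 1.

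Dse (ENSMUSG00000039497, chromosome 10 from 34151393 to 34207715) encodes the dermatan sulfate epimerase, which converts glucuronic to iduronic acid in the chain. It had 0, 1 and 11 counts in HS3A8-high, 16, 2 and 11 in HS3A8-low MEPs and 26, 3 and 0 in the control. Libraries of every group lay at or under 3 counts. The log2 fold change between the sorted fractions was -1.31 with a 95% interval of -4.20 to 1.57 (edgeR adjusted p = 0.612), and Dse did not pass the count filter in HS3A8-high against the control. No difference in Dse could be resolved at this depth.

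In HS3A8-high against HS3A8-low, 0 of the 10 enzymes passed the threshold of an adjusted p under 0.05 in edgeR's quasi-likelihood test, where 3.82% of the 11791 genes tested did. At an unadjusted p under 0.05 there was 1 enzyme (19.8% of all genes), and 1 enzyme, Csgalnact1, had groups without overlap (28.6% of all genes, 14.5% being lower in HS3A8-high). Lower in HS3A8-high were 7 of the 10, with a median log2 fold change of -0.14 against -0.03 over all genes. In HS3A8-high against the control, 0 of the 9 enzymes tested passed (0.0174% of 11486 genes), 0 did at an unadjusted p under 0.05 (4.89%), 0 had groups without overlap (14.2%), and the median was 0.18 against 0.00. In HS3A8-low against the control 0 of 10 passed (0% of 11878 genes), 1 did at an unadjusted p under 0.05 (5.67%), 1 had groups without overlap (12.8%, 7.88% being higher in HS3A8-low), and the median was 0.15 against 0.00. Both comparisons with the control share its 3 libraries. DESeq2 called 0 of the enzymes in each comparison as well. The intervals of Chst11 and Dse reach past a 2-fold change in both directions, while those of Chpf2, Csgalnact2, Chst12 and Chst15 stay within it in every comparison.

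**Figure D2:**
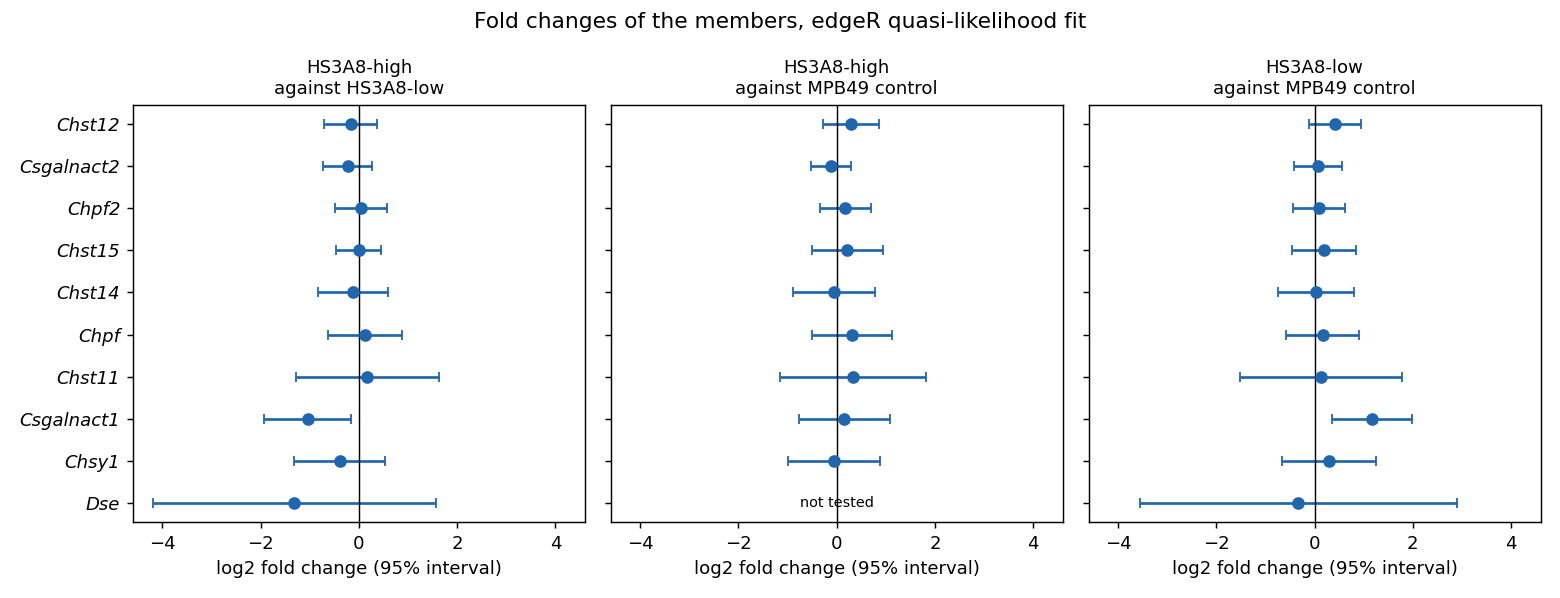
Log2 fold change (horizontal axis) of each enzyme in the 3 comparisons, with points for edgeR's estimates and lines for 95% intervals. Intervals that do not cross 0 belong to Csgalnact1, at -1.04 in HS3A8-high against HS3A8-low and 1.16 in HS3A8-low against the control, and neither passed after adjustment over all genes.

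On a linkage region, Csgalnact1 and Csgalnact2 start CS, and Extl3, which adds the first N-acetylglucosamine of HS, starts HS. The summed level per kilobase of Csgalnact1 and Csgalnact2 was divided by that of Extl3. Csgalnact2 made up most of the sum, with Csgalnact1 at 3.94% to 11.9% of it over the libraries. The ratio was 0.966, 1.17 and 1.07 in the HS3A8-high libraries, 1.66, 1.68 and 1.84 in HS3A8-low MEPs, and 3.15, 1.24 and 1.35 in the control. HS3A8-high lay below both other groups without overlap, and control replicate 1 stood apart from the other control libraries. The geometric means were 1.06 in HS3A8-high MEPs, 1.73 in HS3A8-low MEPs and 1.74 in the control.

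On the log2 scale the mean ratio was 0.09 ± 0.137 (SD, n = 3) in HS3A8-high, 0.79 ± 0.082 in HS3A8-low MEPs and 0.80 ± 0.744 in the control. HS3A8-high differed from HS3A8-low by -0.70 and from the control by -0.71, each at p = 0.1 in the exact two-sided permutation test, the smallest value that 3 against 3 allows (adjusted p = 0.225). With 1 library left out the difference from HS3A8-low ran from -0.77 to -0.63. Without control replicate 1 the difference of HS3A8-high from the control was -0.28, and that of HS3A8-low from the control was 0.42 instead of -0.01. Extl3 itself had 99.5, 61.0 and 65.8 CPM in HS3A8-high MEPs, 74.0, 50.9 and 42.7 in HS3A8-low MEPs, and 29.8, 70.4 and 56.5 in the control. These values overlapped between the groups, and HS3A8-high was above HS3A8-low within each of the 3 replicate numbers. The log2 fold change of Extl3, HS3A8-high over HS3A8-low, was 0.41 (95% interval -0.23 to 1.04, edgeR adjusted p = 0.458). It was 0.40 with the replicate number as a block and GC content and length offsets, where Extl3 passed the threshold (adjusted p = 0.0278), and did not pass with the block alone (0.0523). In that setting 1788 of 11723 genes passed, and Extl3 was not called in the other 17 of the 18 alternatives. Csgalnact2 had a log2 fold change of -0.23 in the same comparison, also not called. The ratio compares transcript levels and does not measure the chains.

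**Figure D3:**
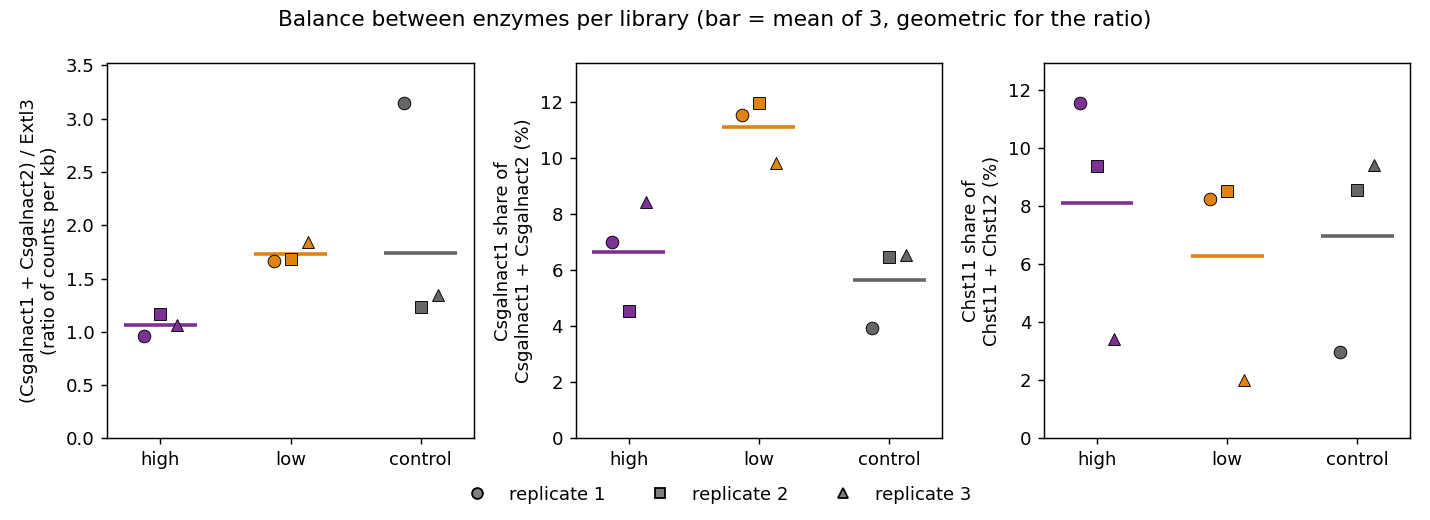
Per library, the ratio of Csgalnact1 and Csgalnact2 to Extl3, the Csgalnact1 share of both N-acetylgalactosaminyltransferases and the Chst11 share of Chst11 and Chst12 (vertical axes, from levels per kilobase, shares in percent). Points are libraries and bars are means of 3, geometric for the ratio. The HS3A8-high ratios (0.966 to 1.17) lie below all others, and control replicate 1 is at 3.15.

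The remaining CS and DS synthesis genes had few counts. Chst3 had no count in any of the 9 libraries. Chst7 had 0 to 5 counts, Chsy3 0 to 6 and Ust 0 to 8. Chst13 had 0 to 10 counts except in HS3A8-low replicate 3, with 36 counts (3.03 CPM). Dsel, the second epimerase gene, had 3 to 12 counts except in HS3A8-low replicate 1, with 47 (2.75 CPM), and control replicate 1, with 44 (4.14 CPM). None of these 6 passed the count filter in HS3A8-high against HS3A8-low, and Dsel alone did in the comparisons with the control. Dsel was lower in all HS3A8-high libraries (0.188 to 0.677 CPM) than in all control libraries (0.766 to 4.14 CPM). Of all genes tested in this comparison, 14.2% had groups without overlap in either direction. The log2 fold change of Dsel was -1.99 (95% interval -4.003 to 0.03, edgeR adjusted p = 0.733), and in HS3A8-low against the control it was -0.58 (adjusted p = 0.918). Chst3 and Chst7, which add a C6 sulfate, were thus not detectable or nearly so at this depth. Chst15, which adds a further sulfate as described above, is not among these 6 genes.

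The steps before chain initiation gave few differences. Of the 7 linkage region genes, 4 were higher and 3 lower in HS3A8-high, with a median log2 fold change of 0.03, and 0 passed the threshold. Pxylp1, which removes the phosphate from the linkage xylose, had a log2 fold change of -0.88 in the test with the replicate number as a block (adjusted p = 0.031), where 11.6% of all genes passed. The 13 genes for sugar nucleotides, sulfate donor and their transporters had 5 higher and 8 lower, a median of -0.07 and 0 past the threshold, with or without the block. Of 12 tested HS chain genes (24 listed), 9 were higher in HS3A8-high, with a median of 0.19 and 0 past the threshold. With the block 2 of them passed, Hs6st1, a 6-O-sulfotransferase (0.32, adjusted p = 0.045), and Ndst1, an N-deacetylase and N-sulfotransferase (-1.11, adjusted p = 0.024).

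Among the core proteins that can carry CS or DS, 8 of 17 were tested, 3 higher and 5 lower in HS3A8-high. Past the threshold were 2, both lower, where 3.82% of all genes passed. Srgn, which encodes serglycin, had 189.6, 209.9 and 222.4 CPM in HS3A8-high MEPs, 312.7, 341.6 and 407.2 in HS3A8-low MEPs, and 537.5, 268.1 and 263.4 in the control. All HS3A8-high values lay below all others. Replicate 3 was the highest library of both sorted fractions, and the highest control value was that of control replicate 1, which stood apart as described above. The part of other cell types in the level of Srgn was not tested. The log2 fold change of Srgn between the sorted fractions was -0.80 (standard error 0.116, edgeR adjusted p = 0.0253). The call was lost without HS3A8-high replicate 1 (adjusted p = 0.0999), HS3A8-high replicate 2 (0.106) or HS3A8-low replicate 2 (0.124), and with replicate number 1 or 2 left out of both groups, with the fold change between -0.86 and -0.68.

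Cd74, the invariant chain of MHC class II, of which a minor form carries CS, had 9.17, 6.92 and 18.9 CPM in HS3A8-high MEPs, 105.5, 122.5 and 139.6 in HS3A8-low MEPs, and 102.1, 48.0 and 34.0 in the control. Here, too, every HS3A8-high value lay below all others. Its log2 fold change was -3.42 (standard error 0.367, edgeR adjusted p = 0.0114), with the call lost without HS3A8-high replicate 1 (0.0533) or HS3A8-low replicate 2 (0.0873), and with replicate number 1 or 2 left out of both groups. Cd74 is also expressed by antigen-presenting cells, whose marker sums are given above. With the block 4 core protein genes passed, where 11.6% of all genes did, adding App (-1.997, adjusted p = 0.013) and Aplp2 (0.34, adjusted p = 0.027). App ran from 1.13 to 14.3 CPM in HS3A8-high MEPs and from 6.40 to 38.9 in HS3A8-low MEPs. It was highest in replicate 3 of both fractions, and the part of other cell types in its level was not tested. The list median was -1.14, against -0.03 over all genes. Bcan, Cspg4, Ncan, Ptprz1 and Vcan had no count in any library.

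Of 10 CS and DS degradation genes, 4 were higher and 6 lower in HS3A8-high, with a median of -0.03 and 0 past the threshold. With the block 1 of the 10 passed, where 11.6% of all genes did.

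**Figure D4:**
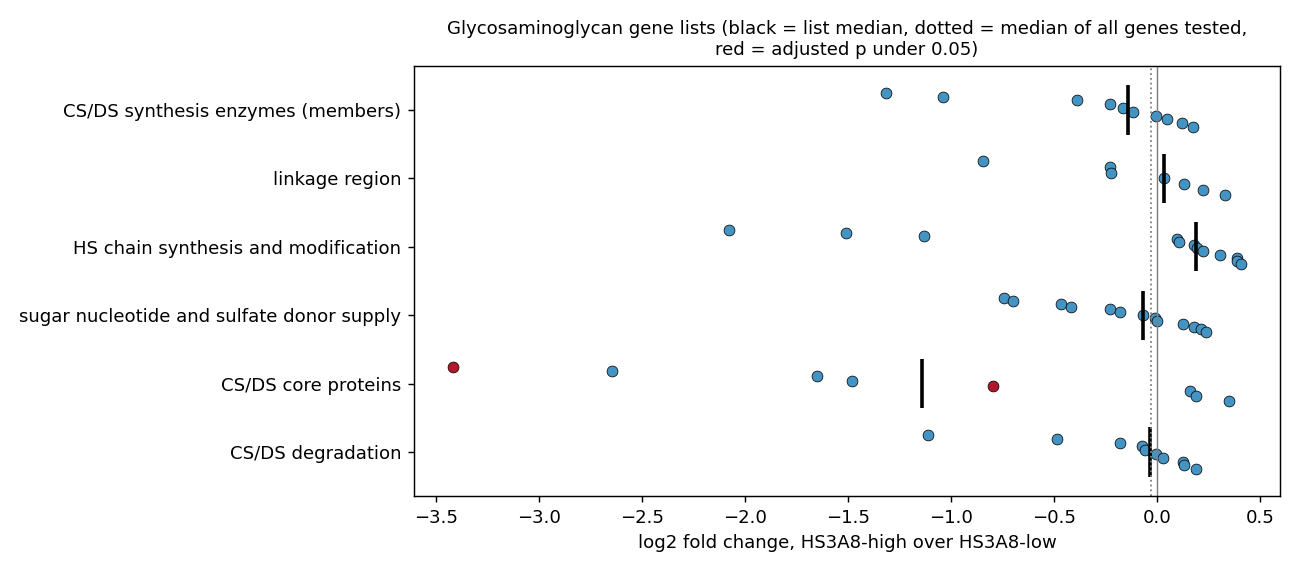
Log2 fold change, HS3A8-high over HS3A8-low (horizontal axis), of every tested gene in the CS and DS enzymes, the linkage region, HS chain, donor supply, core protein and degradation lists, with 1 point per gene, black marks for list medians and a dotted line for the median of all genes. The 2 red points past the threshold are Srgn at -0.80 and Cd74 at -3.42.

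The expression patterns of the enzymes over the 9 libraries were set beside those of 9347 genes whose mean reached 5 CPM, as a description by Pearson's r of log2 CPM. The libraries share 3 groups and differ in depth, so r carries both. For Csgalnact1 the closest genes were Slc41a1 (r = 0.975), Add3 (0.967) and Phf21a (0.963), and 27 genes exceeded 0.9. Among 49 genes of the glycosaminoglycan lists, Ndst1 was the closest (0.939), followed by Ugdh (0.807) and Papss1 (0.696). Ndst1 had 12.4, 5.87 and 7.68 CPM in HS3A8-high MEPs, 28.5, 14.9 and 12.5 in HS3A8-low MEPs, and 6.12, 10.6 and 5.73 in the control. Its highest library, HS3A8-low replicate 1, was also that of Csgalnact1.

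For Csgalnact2 the closest genes were 2610008E11Rik (r = 0.978) and Arhgef40 (0.953), and within the lists Glce (0.632) and Ndst1 (0.629). Chst11 was added after its values had been seen. Its closest genes were Pds5b (r = 0.981), Flywch1 (0.974) and Chd4 (0.973), and 212 of the 9347 genes exceeded 0.9. Within the lists the closest was Xylt1 (0.971), a xylosyltransferase that starts the linkage region. Xylt1 had 10.2, 5.42 and 3.51 CPM in HS3A8-high MEPs, 9.08, 6.82 and 2.44 in HS3A8-low MEPs, and 2.17, 7.85 and 6.02 in the control. As for Chst11, replicate 1 was highest in both sorted fractions and lowest in the control.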

How the data were processed

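The authors deposited raw counts, whole numbers of reads per gene and not normalized, with 1 column for each of the 9 libraries. The submitters' processing notes name STAR 2.5, HTSeq 0.6.1 and mm10; the strand setting and annotation release are not given in the sources used here. Identifiers were joined to GENCODE M21 on GRCm38 (34490 of 35275 matched). The 10 enzymes and the other lists were chosen with earlier results of these data known.

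Counts were filtered with filterByExpr, scaled by TMM and tested with edgeR 4.0.16 in R 4.3.3 (quasi-likelihood, the 2 groups compared, Benjamini-Hochberg adjustment over all genes, threshold 0.05). The methods name DESeq2 without a formula, and DESeq2 1.42.0 was an alternative. SE is the absolute log2 fold change over the square root of F. P-values measure the spread between these libraries, which the labels do not tie to single animals. Ratios used exact permutation tests (scipy 1.17.1), with Benjamini-Hochberg adjustment over 9 tests. Scripts were tested on simulated data.

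Pairing was checked over 12108 genes. After the group means were subtracted, same-numbered libraries of both sorted fractions resembled each other (r of 0.325 to 0.509) and differently numbered ones did not (-0.469 to 0.123). Subtracting the mean lowers the differently numbered values where the same-numbered ones are positive, so the contrast is not separate evidence. The pairing comes from these data and not from the labels. Blocked values of lists are given as counts of calls. Numbers did not pair either fraction with the control (-0.345 to 0.0312).

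Named were all 10 enzymes, Extl3, and genes of the other glycosaminoglycan lists past the threshold, at most 4 per list by smallest p. Genes of the cell type lists past the threshold were counted and not named. Likeness was given for the 2 enzymes with the smallest p and a mean of at least 5 CPM. Members of the other lists that are named with a blocked or lower value were chosen after their values were seen. Alternatives were DESeq2 size factors, the DESeq2 test, voom with quality weights (limma 3.58.1), leaving the low counts in, keeping genes with a mean count of 10 or more, fitting the 9 libraries jointly, the block, GC content and length offsets (splines of 5 degrees of freedom), both together, and each library or replicate number left out, 18 per comparison. Protein and promoter sequences were not used here. The values of 1 gene of the lists are not reported here.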

Additional observations from a re-analysis of the deposited data

How the results depend on the processing

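Under the 18 alternatives per comparison, 0 enzymes were called in any comparison. Of 516 fold changes computed under alternatives, 441 kept their direction and 75 changed sign, 54 of these with libraries left out. Main estimates that changed sign had 95% intervals that include 0.

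In HS3A8-high against HS3A8-low, voom with quality weights gave -0.17 for Chpf, -0.0367 for Chpf2, -0.083 for Chst11 and 0.0275 for Chst12, and Chst15 was 0.0075 with DESeq2 size factors, 0.014 with the DESeq2 test, 0.0195 without a count filter and 0.018 with all libraries fitted jointly. In HS3A8-high against the control, voom gave -0.10 for Csgalnact1, -0.32 for Chst11 and -0.0184 for Chst15, and Chst14 was 0.0099 with GC and length offsets and 0.0447 with the block added. In HS3A8-low against the control, Chpf2 was -0.0794 with these offsets and -0.0777 with the block added, and voom gave -0.24 for Chst11, -0.0772 for Chst14, -0.0208 for Chst15 and 1.80 for Dse. Dse was 0.38 with the replicate block and 0.30 with block and offsets. The cause was not tested.

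Sign changes aside, leaving out libraries moved Chsy1 from -0.86 to -0.06, Dse from -3.98 to -0.73 and Extl3 from 0.15 to 0.68 in HS3A8-high against HS3A8-low. For HS3A8-high over the control these ranges were 0.10 to 0.48 for Chst12 and -0.26 to -0.02 for Csgalnact2. For HS3A8-low over the control they were 0.17 to 0.60 for Chst12, 0.07 to 0.51 for Chsy1 and 0.76 to 1.37 for Csgalnact1. With sign changes, HS3A8-high over HS3A8-low moved from -0.15 to 0.35 for Chpf, -0.16 to 0.22 for Chpf2, -0.39 to 0.0115 for Csgalnact2, -0.30 to 0.68 for Chst11, -0.34 to 0.0056 for Chst12, -0.51 to 0.11 for Chst14 and -0.21 to 0.14 for Chst15. HS3A8-high over the control moved from -0.34 to 0.13 for Chsy1, -0.14 to 0.56 for Chpf, -0.12 to 0.42 for Chpf2, -0.21 to 0.54 for Csgalnact1, -0.56 to 1.05 for Chst11, -0.32 to 0.14 for Chst14 and -0.23 to 0.51 for Chst15. HS3A8-low over the control moved from -0.0258 to 0.40 for Chpf, -0.14 to 0.25 for Chpf2, -0.15 to 0.20 for Csgalnact2, -0.76 to 0.94 for Chst11, -0.24 to 0.34 for Chst14, -0.15 to 0.49 for Chst15 and -1.24 to 2.63 for Dse. The log2 ratio to Extl3 of HS3A8-low against the control moved from -0.25 to 0.42. The Chst11 share moved from -0.28 to 4.19 percentage points (HS3A8-high against HS3A8-low), -0.87 to 3.48 (HS3A8-high against the control) and -2.71 to 1.41 (HS3A8-low against the control).

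With the replicate block, the adjusted p in HS3A8-high against HS3A8-low was 0.081 for Csgalnact1 and 0.144 for Csgalnact2. The block changed no call of an enzyme, and the calls it changed among the linkage region, HS chain and core protein lists are named in the report. In paired differences the branch ratio was -0.70 (exact p = 0.25, the smallest that 3 pairs allow). Over all genes, 451 were called in the main fit, 72 of them higher in HS3A8-high, 1367 (392) with the block, 1224 (303) by DESeq2, 1490 (427) by voom, 746 (190) with offsets, 1788 (606) with offsets and block, 325 (8) with all libraries fitted jointly, and 0 to 748 with libraries left out. The DESeq2 test called 140 genes in HS3A8-high against the control, where the main fit called 2, and 93 in HS3A8-low against the control, where it called 0. Srgn lost its call with all libraries fitted jointly (adjusted p = 0.211). The 3 libraries per group and low counts of Dse, Chsy1 and Csgalnact1 limit what could be resolved.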
